A study of Mus musculus with 4 samples.

Results

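Nuclear hormone receptors are transcription factors whose activity is set by small fat-soluble ligands. The group described here is a list of 40 mouse receptor genes, taken as the rows of the count table whose trimmed symbol was on the list. All 40 were found, 1 row each, among 54532 genes. The libraries were made from bone marrow mesenchymal stem cells, stromal precursors of bone, fat and cartilage cells. The 2 libraries labelled knockout came from Ucp1-cre; RhebFL/FL mice, labelled as lacking Rheb in brown adipocytes, and the 2 control libraries came from RhebFL/FL littermates without Cre. The floxed Rheb alleles, the C57BL/6J strain, the age of 1 month and the label male were shared by both groups. Rheb is the small GTPase that switches on the kinase complex mTORC1, and the Ucp1 promoter drives Cre in brown adipocytes, so the profiled cells are not those in which the deletion is directed. The comparison addresses how marrow stromal cells respond to Rheb loss in that other tissue. Each group came from 2 mice, and isolation and culture of the cells are not described in the sources used here.

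The receptors share a DNA-binding domain with zinc fingers and a ligand-binding domain. Steroid receptors are held by chaperones until hormone arrives and then act mostly as pairs of the same receptor. The receptors for retinoic acid, vitamin D, thyroid hormone, oxysterols and fatty acids instead pair with a retinoid X receptor, and many of them recruit corepressors without ligand and exchange them for coactivators with it. In the skeleton, vitamin D, sex steroids, glucocorticoids, thyroid hormone and retinoic acid are all known regulators of bone cells, and the liver X receptors are best known in macrophages.

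Total counts were 17476868 and 17425669 in replicates 1 and 2 labelled knockout, and 18776563 and 19001878 in control replicates 1 and 2. Rheb itself had 129.2 and 121.3 CPM (counts scaled to library size) in the libraries labelled knockout, against 89.7 and 81.5 CPM in controls. It was thus not lower in the libraries labelled knockout, although the profiled cells cannot check a deletion in brown adipocytes. Xist, which silences an X chromosome in female cells, had 31103 and 2 counts in replicates 1 and 2 labelled knockout, against 19502 and 8 in control replicates 1 and 2. Ddx3y, on the Y chromosome, was at 0 and 1631 counts in replicates 1 and 2 labelled knockout, against 0 and 1945 in controls. Both replicates 1 thus had the sex-linked transcripts of female cells and both replicates 2 those of male cells, although all animals were labelled male. Sex by these transcripts and replicate number cannot be told apart in this design. The log2 ratios are therefore also given separately for each replicate number. All 12 listed stromal markers passed the low-count filter, with summed levels of 26510 and 27830 CPM in the libraries labelled knockout and 24690 and 38250 CPM in controls. Macrophage markers were present too, with all 10 listed genes tested and sums of 9077 and 11360 CPM in the libraries labelled knockout and 11750 and 8374 CPM in controls.

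Receptor levels spanned a wide range, and the order was led by retinoid X, liver X, retinoic acid and glucocorticoid receptors. Levels are given as RPKM, the CPM divided by exon length in kilobases, so that genes can be compared. Of the 40 genes, 16 had a mean level of at least 1 RPKM over the 4 libraries, 34 had at least 1 read, and 6 had 0 reads in all 4 libraries. The filter on low counts passed 23 genes to the test, and the other 17 are described by their counts alone. The 23 tested genes had between 41 and 10158 reads over the 4 libraries.

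**Figure D1:**
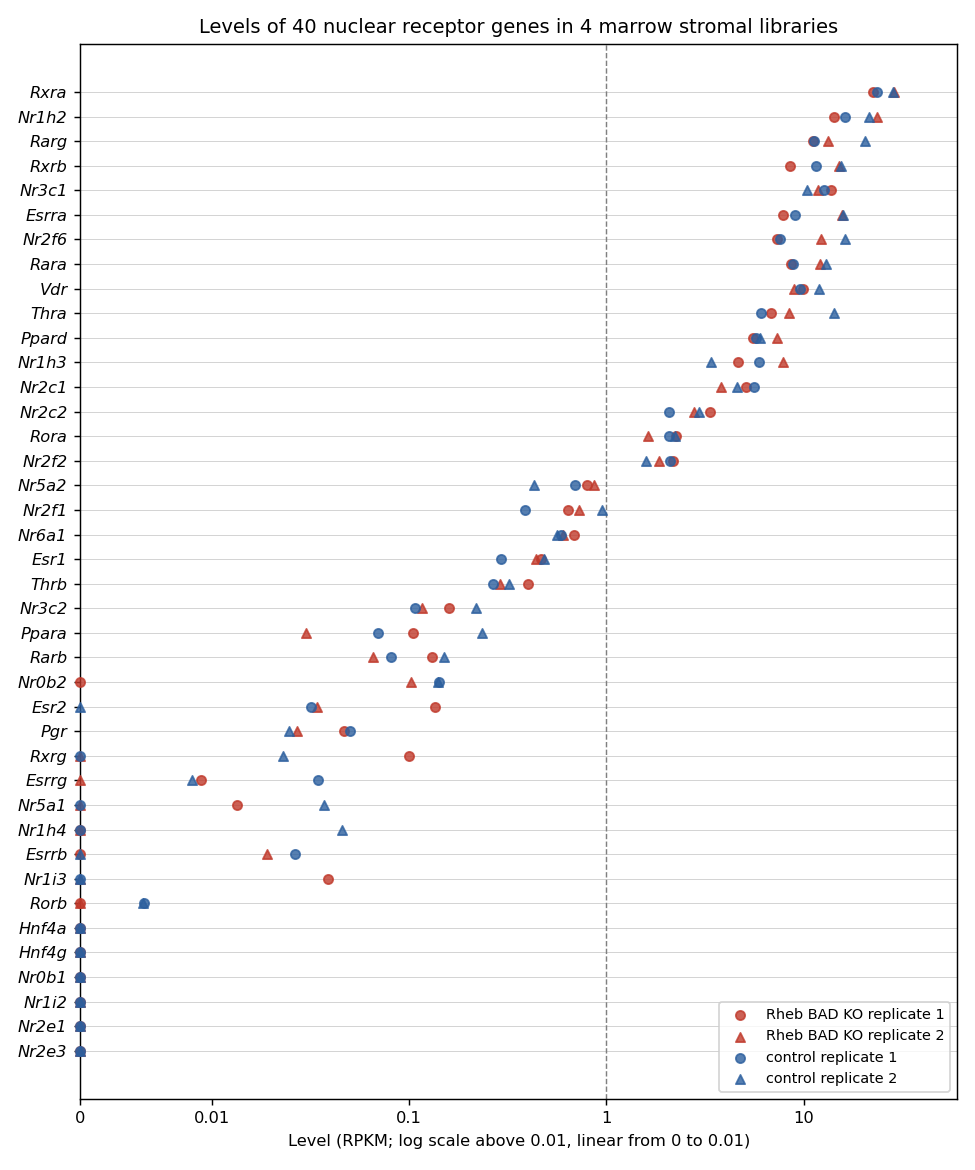
Level of each of the 40 receptor genes in each library, ordered by the mean over the 4 libraries. The x axis is RPKM on a log scale above 0.01 and linear below it, red symbols are libraries labelled knockout, blue symbols are controls, circles are replicates 1 and triangles are replicates 2, and the dashed line marks 1 RPKM. Rxra leads with 22.4 to 28.6 RPKM, and 6 genes lie at 0 in every library.

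The 6 genes with 0 reads were Hnf4a and Hnf4g, receptors of liver and gut epithelium; Nr1i2, the pregnane X receptor that senses foreign chemicals; Nr2e1 and Nr2e3, receptors of neural stem cells and photoreceptors; and Nr0b1, a receptor of adrenal and gonad that lacks the DNA-binding domain. A count of 0 allows up to 3 counts in a library, which for these genes corresponds to 0.0327 to 0.0956 RPKM. A further 11 genes had between 2 and 31 reads over the 4 libraries and at most 17 in any library. They were Ppara, Pgr, Esr2, Nr0b2, Esrrg, Rxrg, Esrrb, Nr5a1, Nr1i3, Nr1h4 and Rorb. Ppara, the fatty acid receptor of liver and heart, had 7 and 2 reads in the libraries labelled knockout and 5 and 17 in controls. Pgr, the progesterone receptor and a textbook target of oestrogen receptor, had 7 and 4 reads in the libraries labelled knockout and 8 and 4 in controls.

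The promoters of the members were set beside these levels, since a promoter rich in CpG dinucleotides is a common feature of widely read genes. RefSeq promoters (GRCm38.p6) were matched by symbol for 36 of the 40 members, and the 250 bases before the start site were read, taking the start with the most CpG where a gene had several. The 6 promoters printed here belong to the 3 members with the highest levels and to 3 of the members with 0 reads, chosen after the values were seen to show both ends of the range. Capitals mark each CpG, and each sequence runs 5′ to 3′ on the strand of its gene.
Rxra: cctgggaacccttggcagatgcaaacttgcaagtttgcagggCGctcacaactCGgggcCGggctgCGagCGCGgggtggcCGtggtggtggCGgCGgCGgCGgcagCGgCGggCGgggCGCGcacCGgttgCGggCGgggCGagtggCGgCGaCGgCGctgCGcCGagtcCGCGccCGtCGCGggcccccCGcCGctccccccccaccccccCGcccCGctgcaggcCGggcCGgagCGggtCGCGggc
Nr1h2: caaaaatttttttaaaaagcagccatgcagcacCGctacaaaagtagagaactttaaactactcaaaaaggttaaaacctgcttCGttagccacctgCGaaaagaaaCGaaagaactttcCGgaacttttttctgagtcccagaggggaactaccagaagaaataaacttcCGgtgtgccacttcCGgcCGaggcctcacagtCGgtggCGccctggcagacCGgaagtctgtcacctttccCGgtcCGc
Rarg: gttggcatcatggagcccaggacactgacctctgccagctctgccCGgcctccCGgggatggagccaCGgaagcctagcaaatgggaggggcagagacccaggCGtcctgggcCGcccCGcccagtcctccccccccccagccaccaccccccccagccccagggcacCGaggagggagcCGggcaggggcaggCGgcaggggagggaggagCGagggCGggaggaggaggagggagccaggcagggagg
Nr2e1: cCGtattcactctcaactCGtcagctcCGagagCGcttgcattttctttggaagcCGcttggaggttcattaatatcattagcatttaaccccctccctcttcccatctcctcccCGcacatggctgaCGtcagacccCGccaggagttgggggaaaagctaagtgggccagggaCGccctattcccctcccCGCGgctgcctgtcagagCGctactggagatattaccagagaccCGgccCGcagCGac
Hnf4a: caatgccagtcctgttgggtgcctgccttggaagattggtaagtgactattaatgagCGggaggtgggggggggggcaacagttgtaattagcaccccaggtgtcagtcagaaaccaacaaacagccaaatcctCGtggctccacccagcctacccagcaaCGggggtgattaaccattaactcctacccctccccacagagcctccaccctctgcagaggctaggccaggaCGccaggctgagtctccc
Nr1i2: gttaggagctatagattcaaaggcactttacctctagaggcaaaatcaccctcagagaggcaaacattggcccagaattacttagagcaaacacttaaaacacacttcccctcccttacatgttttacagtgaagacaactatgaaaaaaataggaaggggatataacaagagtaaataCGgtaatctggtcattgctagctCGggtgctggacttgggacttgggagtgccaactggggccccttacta
In order, these are Rxra at chr2:27676951-27677200 on the plus strand, Nr1h2 at chr7:44553966-44554215 on the minus strand and Rarg at chr15:102257523-102257772 on the minus strand. They are followed by Nr2e1 at chr10:42583591-42583840 on the minus strand, Hnf4a at chr2:163546905-163547154 on the plus strand and Nr1i2 at chr16:38294825-38295074 on the minus strand.

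The Rxra window held 40 CpG at a G and C content of 81.2%, the Nr1h2 window 13 at 48.4% and the Rarg window 11 at 74.4%. Among the genes with 0 reads, the Nr2e1 window held 15 CpG at 58.0%, the Hnf4a window 4 at 57.6% and the Nr1i2 window 2 at 44.0%. The 14 matched members with a mean level of at least 1 RPKM had a median of 19 CpG, with a range of 1 to 42, and the 22 matched members under 1 RPKM had a median of 7, with a range of 2 to 30. Over all genes with a matched promoter the corresponding medians were 17 for 9106 genes and 3 for 11378 genes. Of the members, 12 of the 14 and 10 of the 22 had at least 10 CpG, against 78.8% and 24.0% of all genes at those levels. Nr2f2 had 1 CpG in the window and a level above 1 RPKM, while Thrb had 30 and a level under 1 RPKM. Spearman's rho between CpG number and mean level was 0.50 over the 36 members (Pearson's r was 0.49 with the level as log2(RPKM + 0.1)), which is a description over genes of the same 4 libraries that also differ in base composition.

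**Figure D2:**
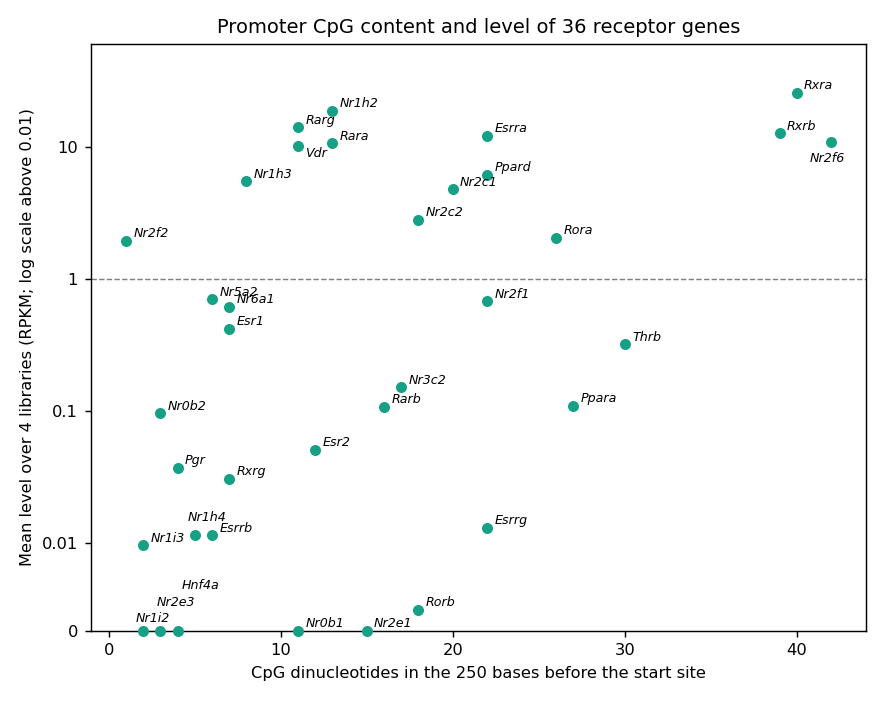
CpG dinucleotides in the 250 bases before the start site (x axis) against the mean level over the 4 libraries in RPKM (y axis, log scale above 0.01), 1 point for each of the 36 matched receptor genes. The dashed line marks 1 RPKM; Rxra, Rxrb and Nr2f6 lie at the upper right, and members with 0 reads lie on the x axis with 2 to 15 CpG.

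Receptors bind variants of the hexamer AGGTCA, alone or as spaced repeats. The exact hexamer, on either strand, was present in 6 of the 36 members' windows, namely Rarg, Nr6a1, Thrb, Rxrg, Nr1h4 and Nr0b1, against 13.6% of all promoters. Exact direct repeats of AGGTCA with 1, 2, 4 or 5 bases between the copies, and the inverted repeat of AGGTCA and TGACCT with 3 bases between, all of which contain the hexamer, were searched on both strands. Each was in 0 of the 36 windows and in at most 0.0407% of all promoters. The GC box GGGCGG, the binding sequence of Sp1-family factors, was in 17 of the 36 windows, against 34.4% of all promoters. It was in 9 of 14 windows at 1 RPKM or more, against 63.2% of all genes at that level, and in 8 of 22 windows under 1 RPKM, against 23.3%.

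No receptor gene passed the test between the groups. edgeR's quasi-likelihood test called 0 of the 23 tested members at an adjusted p of 0.05, as it called 0% of all 14963 tested genes. At an unadjusted p under 0.05 it had 0 members, against 1.86% of all genes, and the smallest unadjusted p of a member was 0.183 (Nr5a2; adjusted p = 1 for every tested member by edgeR). DESeq2 also called 0 members, against 0.154% of all genes, and had 0 members at an unadjusted p under 0.05, against 1.56%. limma-voom called 0 members and had 0 at an unadjusted p under 0.05, against 1.66% of all genes. The groups did not overlap for 2 members, Nr5a2 and Nr6a1, both with higher values in the libraries labelled knockout, against 10.8% of all genes higher and 11.3% lower. The median log2 fold change of the 23 members was -0.02, beside -0.01 over all tested genes, with 11 members above 0 and 12 below. Without control replicate 1, 8 members were above 0 with a median of -0.19, and without control replicate 2, 19 were above 0 with a median of 0.23. Single members ran from -0.42 (Thra) to 0.56 (Nr5a2), with standard errors of 0.21 to 0.68, and 18 of 23 log2 fold changes were smaller in size than their own standard error. The median absolute log2 fold change was 0.19 for members and 0.15 for all genes. The smallest p of an exact permutation test (two-sided) is 0.333 in this design, so the edgeR values depend on spread pooled over genes. A p that misses the threshold does not show that levels were equal.

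**Figure D3:**
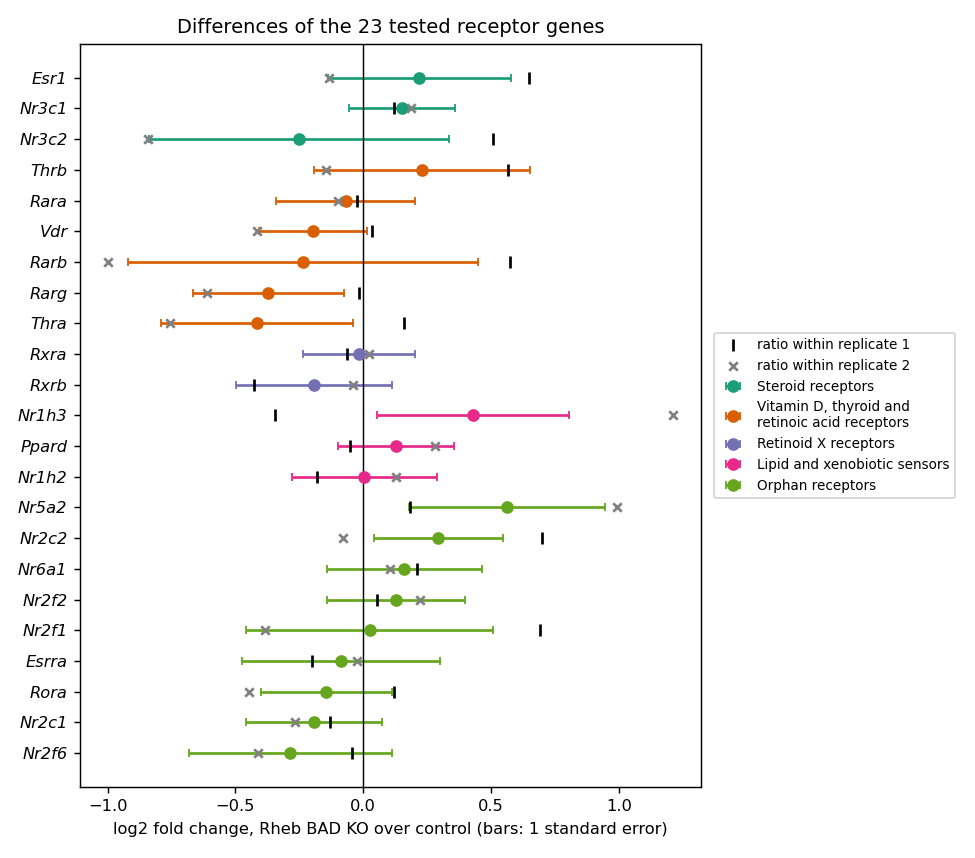
log2 fold change of the 23 tested receptor genes, libraries labelled knockout over controls (x axis), with bars of 1 standard error and colours for receptor classes. Black ticks are the log2 ratios within replicate 1 and grey crosses those within replicate 2; the largest separations are those of Nr1h3 (-0.35 in replicate 1, 1.21 in replicate 2) and Rarb (0.58 and -1.0).

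Among the steroid receptors, the glucocorticoid receptor gene Nr3c1 dominated. Nr3c1 (ENSMUSG00000024431, chromosome 18, minus strand) had 13.8 and 11.8 RPKM in the libraries labelled knockout and 12.7 and 10.3 RPKM in controls. In each group replicate 1 was the higher library, and the groups overlapped. Its log2 fold change was 0.15 (SE 0.21, unadjusted p = 0.489 by edgeR). The mineralocorticoid receptor gene Nr3c2, whose product binds the same hormones and aldosterone, had 0.159 and 0.116 RPKM in the libraries labelled knockout and 0.107 and 0.220 RPKM in controls. Per length Nr3c1 thus made up 97.9% to 99.2% of the pair in every library. Nr3c2 rested on 13 to 27 reads per library, with a log2 ratio of 0.51 in replicate 1 and -0.84 in replicate 2. Esr1, the main oestrogen receptor of bone, was tested at 0.293 to 0.482 RPKM over the 4 libraries with a log2 fold change of 0.22 (SE 0.36). Esr2, the other oestrogen receptor, had 8 and 2 reads in the libraries labelled knockout and 2 and 0 in controls.

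All 3 retinoic acid receptor genes, both thyroid hormone receptor genes and the vitamin D receptor gene passed the filter, and Rarg and Rara led them. Rarg had 11.1 and 13.3 RPKM in the libraries labelled knockout and 11.3 and 20.4 RPKM in controls (log2 fold change -0.37, SE 0.29, unadjusted p = 0.244 by edgeR). Control replicate 2 stood above the other 3 libraries, whose values lay within 11.1 and 13.3 RPKM. Rara had 8.63 and 12.1 RPKM in the libraries labelled knockout and 8.78 and 12.9 RPKM in controls, so that replicate number separated the libraries and group did not. Rarb, the receptor gene that retinoic acid itself induces in many cells, had 0.130 and 0.0657 RPKM in the libraries labelled knockout and 0.0811 and 0.150 RPKM in controls, from 6 to 15 reads per library. Its log2 ratio was 0.58 in replicate 1 and -1.0 in replicate 2. Of the summed RPKM of the 3 genes, Rarg held 52.4% to 60.9%, Rara 38.6% to 47.4% and Rarb 0.258% to 0.654%. Rarb shares 34.1% of its exon bases with the opposite-strand gene Top2b, which had 3786 to 5429 reads per library. The library kit does not mark strand. With 6 to 15 reads of its own, Rarb was credited with few if any reads from the shared bases. Its level per full exon length may therefore be too low.

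Thra, the thyroid hormone receptor gene of bone and heart, had the lowest log2 fold change of all members. It had 6.78 and 8.37 RPKM in the libraries labelled knockout and 6.08 and 14.2 RPKM in controls (log2 fold change -0.42, SE 0.38, unadjusted p = 0.30 by edgeR). As for Rarg, control replicate 2 stood apart and the groups overlapped, with a log2 ratio of 0.16 in replicate 1 and -0.76 in replicate 2. Without control replicate 2 the log2 fold change of Thra was 0.33, and without control replicate 1 it was -0.90. Thra held 94.4% to 97.8% of the summed RPKM of Thra and Thrb. Of its exon bases 5.70% lie opposite the clock receptor gene Nr1d1, which had 306 to 495 reads per library. Vdr, the vitamin D receptor gene, had 9.84 and 8.93 RPKM in the libraries labelled knockout and 9.60 and 11.9 RPKM in controls. Its log2 fold change was -0.20 (SE 0.21).

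Control replicate 2 was also the library with the highest stromal, osteoblast and chondrocyte marker sums. Most of its stromal sum was Col1a1, Col1a2 and Col3a1, at 16330, 13380 and 6416 CPM, whereas Vcam1 and Eng were lowest in that library. The chondrocyte sums were 84.3 and 63.7 CPM in the libraries labelled knockout and 57.4 and 115.9 CPM in controls, with Acan highest in the replicate 2 labelled knockout. The 9 listed osteoblast markers, 6 of them tested and none at 0 in all libraries, summed to 88.9 and 71.5 CPM in the libraries labelled knockout and 103.2 and 274.7 CPM in controls. In RNA from a bulk preparation, fewer cells of a type and less RNA per cell cannot be told apart, and the part of these cells in the values of Thra and Rarg was not tested.

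The retinoid X receptors, the shared partners of the receptors above, were led by Rxra. Rxra (ENSMUSG00000015846, mm10 chr2:27676440-27762957, plus strand) had 22.4 and 28.6 RPKM in the libraries labelled knockout and 23.4 and 28.2 RPKM in controls, the highest level of any member in each library. Its log2 fold change was -0.02 (SE 0.22), with log2 ratios of -0.06 in replicate 1 and 0.02 in replicate 2. Rxrb had 8.56 and 15.0 RPKM in the libraries labelled knockout and 11.5 and 15.4 RPKM in controls. Both genes were higher in replicates 2 than in replicates 1 in each group. Rxrg, the form of muscle and brain, had 4 and 0 reads in the libraries labelled knockout and 0 and 1 in controls. Of the summed RPKM of the 3 genes, Rxra held 64.6% to 72.1%.

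Among the lipid sensors, the liver X receptors Nr1h2 (LXR beta) and Nr1h3 (LXR alpha), which respond to oxysterols, followed different patterns over the libraries. Nr1h2, the widely expressed form, had 14.2 and 23.5 RPKM in the libraries labelled knockout and 16.1 and 21.5 RPKM in controls, with a log2 fold change of 0.00 (SE 0.28). Nr1h3 had 4.65 and 7.86 RPKM in the libraries labelled knockout and 5.92 and 3.37 RPKM in controls (log2 fold change 0.43, SE 0.38, unadjusted p = 0.287 by edgeR). The replicate 2 labelled knockout was the highest library and control replicate 2 the lowest, with a log2 ratio of -0.35 in replicate 1 and 1.21 in replicate 2. Nr1h3 was 24.7% and 25.1% of the summed RPKM of the pair in the libraries labelled knockout and 26.9% and 13.6% in controls.

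Nr1h3 is known as a macrophage receptor, and control replicate 2 also had the lowest macrophage marker sum given above, although the highest was in control replicate 1. The listed C1qa, C1qb and C1qc were lowest in the replicate 1 labelled knockout instead. Neutrophil marker sums, with all 8 listed genes tested, were also lowest in control replicate 2 and highest in control replicate 1. They were 1908 and 2334 CPM in the libraries labelled knockout and 2749 and 946 CPM in controls. Camp and Ltf in that list were highest in the replicate 2 labelled knockout. The 7 listed dendritic cell markers, 6 of them tested and none at 0 in all libraries, summed to 275.5 and 641.5 CPM in the libraries labelled knockout. In controls the sums were 326.3 and 223 CPM, so the highest and lowest sums were in the same libraries as for Nr1h3. Within that list H2-Ab1 and H2-Eb1 were lowest in the replicate 1 labelled knockout. Adipocyte sums, with 3 of 7 listed genes tested and Lep at 0, had that order too. They were 71.8 and 120.4 CPM in the libraries labelled knockout and 78.0 and 58.5 CPM in controls. Nearly all of each sum was Fabp4, at 69.2 and 117.3 CPM in the libraries labelled knockout and 76.9 and 56.7 CPM in controls. Adipoq and Plin1 were lowest in control replicate 1 instead. Osteoclast sums, with 5 of 7 tested and none at 0 in all libraries, had the same order as Nr1h3. They were 175.8 and 236 CPM in the libraries labelled knockout and 210.8 and 117.7 CPM in controls. Ctsk in that list ran the other way, at 57.7 and 51.7 CPM in the libraries labelled knockout and 60.1 and 74.6 CPM in controls. The part of these cells in the Nr1h3 values was not tested. Ppard, the broadly expressed fatty acid receptor, had 5.49 and 7.29 RPKM in the libraries labelled knockout and 5.70 and 6.00 RPKM in controls (log2 fold change 0.13, SE 0.23). It held 96.3% to 99.6% of the summed RPKM of Ppara and Ppard.

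Orphan receptors, those with no established hormone, made up 9 of the 23 tested genes and 6 of the 16 at 1 RPKM or more. Esrra, the oestrogen-related receptor that drives mitochondrial genes, had 7.87 and 15.6 RPKM in the libraries labelled knockout and 9.06 and 15.9 RPKM in controls. Replicates 2 lay above replicates 1 in each group, and the log2 fold change between groups was -0.09 (SE 0.39). Nr2f6, a repressor of the COUP-TF family, had 7.31 and 12.2 RPKM in the libraries labelled knockout and 7.54 and 16.2 RPKM in controls (log2 fold change -0.29, SE 0.40). It shares 54.4% of its exon bases with the opposite-strand gene Ocel1, which had 271 to 341 reads per library against 382 to 918 for Nr2f6. How reads in shared bases were counted is not described. Nr1i3 shares 74.9% of its exon bases with Tomm40l, which had 82 to 168 reads per library. Yet Nr1i3 had 3 and 0 reads in the libraries labelled knockout and 0 and 0 in controls. Reads in shared bases may thus be left out, and the Nr2f6 level per full length may be too low. The other COUP-TF genes were lower per length, Nr2f2 at 1.58 to 2.19 RPKM and Nr2f1 at 0.388 to 0.951 RPKM over the 4 libraries.

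Nr5a2, an activator of steroid-making and bile acid genes, had the highest log2 fold change of all members. It had 82 and 89 reads in the libraries labelled knockout and 77 and 48 in controls, or 0.794 and 0.869 RPKM in the libraries labelled knockout and 0.697 and 0.429 RPKM in controls. The groups did not overlap, but the log2 fold change of 0.56 (SE 0.38) did not pass the test, and it was 0.18 within replicate 1 and 0.99 within replicate 2. Leaving out control replicate 2 brought it to 0.26, and leaving out control replicate 1 to 0.95. Nr2c2 (TR4) had 3.36 and 2.77 RPKM in the libraries labelled knockout and 2.07 and 2.93 RPKM in controls (log2 fold change 0.29, SE 0.25), with control replicate 1 below the other 3 libraries. It shares 30.7% of its exon bases with the opposite-strand gene Mrps25, which had 259 to 355 reads per library. As for Nr2f6, the Nr2c2 level per full length may be too low. The related Nr2c1 (TR2) had 3.79 to 5.60 RPKM and Rora, the retinoic acid-related orphan receptor, 1.63 to 2.26 RPKM over the 4 libraries. Nr6a1, the germ cell nuclear factor, lay between 0.560 and 0.686 RPKM with groups that did not overlap and a log2 fold change of 0.16 (SE 0.30).

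Many receptor genes were higher in replicates 2 than in replicates 1. Of the 23 tested members, 10 had higher values in both replicates 2 than in both replicates 1, or 43.5% against 26.5% of all tested genes, and 3 had lower values, or 13.0% against 26%. The 10 were Rxra, Nr1h2, Rarg, Rxrb, Esrra, Nr2f6, Rara, Thra, Ppard and Nr2f1, and the 3 were Nr3c1, Nr2c1 and Nr2f2. The split by replicate number was made after the values were seen, and these shares are a description of the 4 libraries. The difference between replicate numbers was larger in size than that between groups for 16 of the 23 members, or 69.6% against 65.8% of all tested genes. Replicates 2 exceeded replicates 1 by a median log2 ratio of 0.13 in the libraries labelled knockout and 0.41 in controls over the 23 members, while over all tested genes the medians were 0.01 and 0.00. The sign of the log2 ratio between groups differed between replicate 1 and replicate 2 for 13 of the 23 members, or 56.5% against 52.6% of all tested genes. Sex-linked transcripts went with the same replicate numbers, and their bearing on the receptor levels was not tested.

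**Figure D4:**
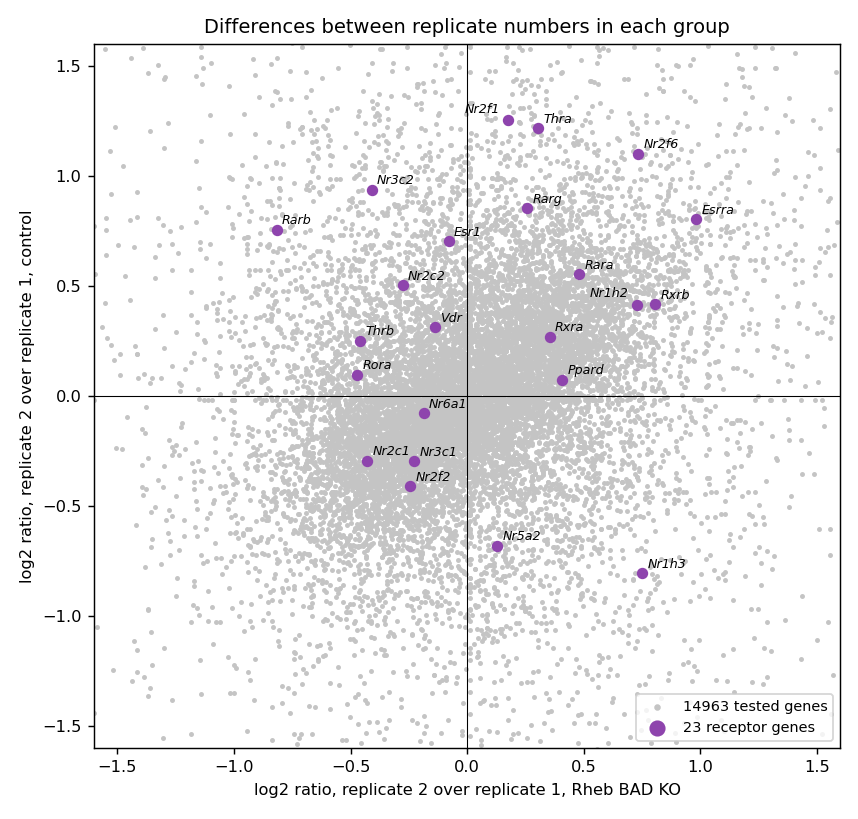
log2 ratio of replicate 2 over replicate 1 in the libraries labelled knockout (x axis) and in controls (y axis), computed on CPM + 0.1, for 23 receptor genes (purple) over all tested genes (grey; 619 genes lie outside the window of 1.6). The 10 members at the upper right were higher in both replicates 2, and Nr3c1, Nr2c1 and Nr2f2 at the lower left were lower.

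None of the partner genes through which the receptors act passed the test. Of 113 listed coregulators, chaperones, ligand-handling genes and target genes, 93 were tested and edgeR called 0, with 3 at an unadjusted p under 0.05, or 3.23% beside 1.86% of all tested genes. Their log2 fold changes had a median of 0.03, with 52 above 0 and 41 below. DESeq2 and limma-voom also called 0 of them.

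Coactivators are the proteins that ligand-bound receptors recruit. Of 14 tested, 13 had positive log2 fold changes, with a median of 0.16, and 0 passed in either direction, whereas 48.8% of all tested genes had positive values. The count was 11 to 12 of 14 whichever library was left out. Of the 14, 8 had groups that did not overlap in that direction and 0 in the other, against 10.8% and 11.3% of all genes. Other lists held such genes too. Corepressors had 4 of 11 higher and 1 lower, liver X receptor targets 3 of 10 higher and 1 lower, and PPAR (fatty acid receptor) targets 0 of 9 higher and 3 lower. Vitamin D and thyroid hormone targets had 0. The lists were chosen with earlier results of these data known. Endothelial marker sums also separated the groups, with all 7 genes tested and none at 0 in all libraries. They were 891.2 and 1015 CPM in the libraries labelled knockout and 721.1 and 805.6 CPM in controls. For Emcn and Tek in that list the groups overlapped. B cell marker sums separated the groups too, with all 8 genes tested and none at 0 in all libraries. They were 124.3 and 52.9 CPM in the libraries labelled knockout and 710.4 and 263.3 CPM in controls. Most of each sum was Ighm and Igkc, and for Cd79b, Ms4a1 and Pax5 the groups overlapped. The part of endothelial and B cells in the coactivator values was not tested. Ep300, a histone acetyltransferase, had 144.6 and 139.8 CPM in the libraries labelled knockout and 110.3 and 119.7 CPM in controls (log2 fold change 0.31, SE 0.19, unadjusted p = 0.145 by edgeR). Ncoa6 had a log2 fold change of 0.30 (SE 0.20). Ppargc1a, the coactivator of mitochondrial genes, did not pass the filter. The 11 corepressors had a median of 0.03 with 7 above 0, among them Lcor (log2 fold change 0.68, SE 0.30, unadjusted p = 0.0576 by edgeR). The corepressor median was 0.14 without control replicate 2. The 10 steroid receptor chaperones had a median of -0.04 with 3 above 0. Without control replicate 1 their median was 0.034 with 6 above 0, and without control replicate 2 it was -0.13 with 1 above 0. Hspa8 and Bag1 had log2 fold changes of -0.34 (SE 0.29) and -0.19 (SE 0.19).

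Genes that make, move or remove the ligands gave 16 tested members, 8 above 0 and 8 below, with 0 called. The thyroid hormone deiodinases lay at opposite ends. Dio3, which inactivates thyroid hormone, had 15.4 and 17.3 CPM in the libraries labelled knockout and 27.6 and 37.8 CPM in controls. The groups were separate for this gene, with a log2 fold change of -1.0 (SE 0.26, unadjusted p = 0.00528 and adjusted p = 1 by edgeR), at -0.84 in replicate 1 and -1.12 in replicate 2. Dio2, which activates the hormone, had 4.68 and 6.86 CPM in the libraries labelled knockout and 4.27 and 2.00 CPM in controls (log2 fold change 0.88, SE 0.45, unadjusted p = 0.0888 by edgeR), at 0.13 in replicate 1 and 1.73 in replicate 2. The local aromatase gene Cyp19a1, the vitamin D activating gene Cyp27b1 and the cortisol-inactivating gene Hsd11b2 did not pass the filter.

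Target genes of the receptors were lists of textbook targets, and none was called in any list. Retinoic acid targets had 7 of 11 genes tested, 2 above 0 and 5 below, with a median of -0.26 that turned to 0.07 without control replicate 2. Crabp2, which carries retinoic acid to its receptor, had 2.23 and 1.67 CPM in the libraries labelled knockout and 4.27 and 5.63 CPM in controls. Its groups did not overlap (log2 fold change -1.34, SE 0.40, unadjusted p = 0.00969 and adjusted p = 1 by edgeR). Cyp26b1, which degrades retinoic acid, had 14.7 and 16.3 CPM in the libraries labelled knockout and 11.7 and 4.74 CPM in controls. Its log2 fold change was 0.91 (SE 0.42, unadjusted p = 0.0610 by edgeR), and 0.32 in replicate 1 beside 1.76 in replicate 2. Without control replicate 1 Cyp26b1 was called by edgeR (log2 fold change 1.71, adjusted p = 0.0122) in a fit that called 183 genes in all. That fit has 1 control library, which is assumed to vary like the 2 libraries labelled knockout.

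The 10 liver X receptor targets were all tested, 6 above 0 and 4 below, with a median of 0.08. Abcg1, a sterol exporter, had 65.2 and 98.9 CPM in the libraries labelled knockout and 64.6 and 49.1 CPM in controls, with the highest and lowest values in the same libraries as for Nr1h3 (log2 fold change 0.53, SE 0.26, unadjusted p = 0.0776 by edgeR). Scd1, the fatty acid desaturase, had 188.8 and 150.1 CPM in the libraries labelled knockout and 99.7 and 124.1 CPM in controls, a log2 fold change of 0.60 (SE 0.22, unadjusted p = 0.0270 and adjusted p = 1 by edgeR). Without the replicate 2 labelled knockout 3 of the 10 targets were above 0, and the median was -0.09.

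Glucocorticoid targets had 8 of 11 tested genes above 0 and a median of 0.16, with medians of -0.09 within replicate 1 and 0.27 within replicate 2, and the list's median was 0.02 without the replicate 2 labelled knockout. Dusp1 and Mt1 had log2 fold changes of 0.37 (SE 0.24) and -0.34 (SE 0.27). PPAR targets had 3 of 9 above 0 and a median of -0.10 (-0.022 without control replicate 2), with Cpt2 at -0.23 (SE 0.23) and Angptl4 at -0.25 (SE 0.30). Of the vitamin D targets only Spp1 (log2 fold change 0.04, SE 0.34) and Tnfsf11, the osteoclast-inducing ligand RANKL (-0.71, SE 0.53), passed the filter. Cyp24a1, the most responsive vitamin D target, did not. For both tested targets the sign differed between replicate numbers. The log2 ratio of Tnfsf11 was 0.55 in replicate 1 and -2.02 in replicate 2, and that of Spp1 was -0.38 and 0.62. Of the thyroid hormone targets, Me1 (-0.20, SE 0.27), Atp2a2 (0.09, SE 0.22) and Hr were tested.

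**Figure D5:**
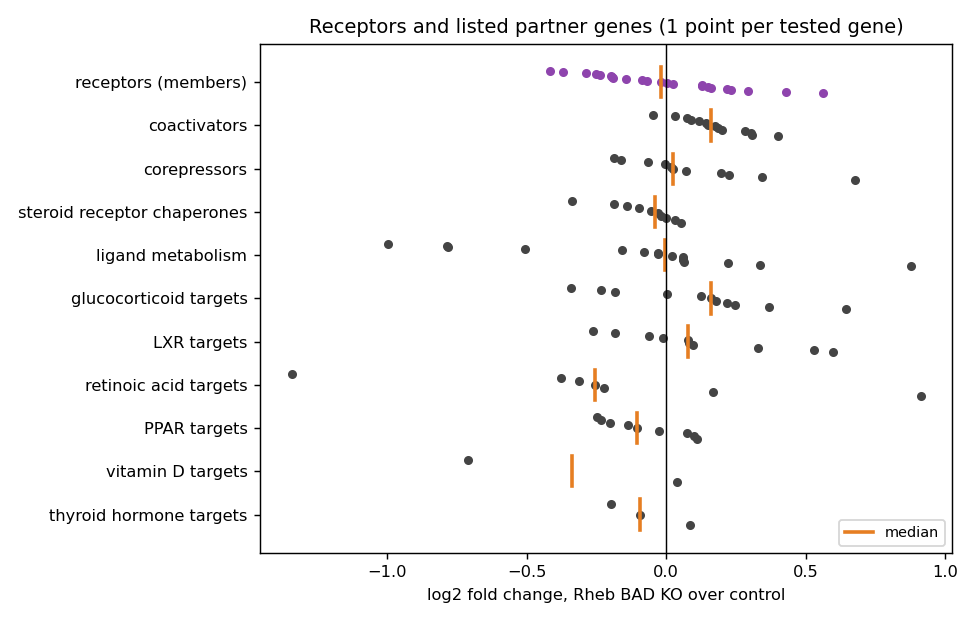
log2 fold change, libraries labelled knockout over controls (x axis), of each tested receptor gene (top row, purple) and of each tested gene in the 10 partner lists (grey), with list medians as orange bars. Medians lie between -0.34 for the 2 tested vitamin D targets and 0.16 for coactivators and glucocorticoid targets.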

How the data were processed

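The authors deposited 1 table of whole-number read counts per gene for the 4 libraries and exon lengths in bases. Trimmomatic, HISAT2, featureCounts and the build mm10 are named in the submitters' processing notes, without versions. The kit was TruSeq RNA version 2, per the labels' protocols, and it does not record the strand. Counting of reads over several genes is not described in the sources used here. All 40 members were found in GENCODE M21, 38 of them with the same chromosome, start and end.

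Sample titles gave the groups and replicate numbers. The deposited counts went into edgeR 4.0.16 (R 4.3.3) with the filterByExpr filter (14963 genes kept), TMM scaling, a quasi-likelihood F-test on group alone and Benjamini-Hochberg adjustment at 0.05 over all tested genes. Standard errors were derived from the F statistic and the log2 fold change. log2 ratios between single libraries used CPM + 0.1. TMM factors ran from 0.997 to 1.003. The groups held 2 mice each, and p-values rest on the spread between these libraries alone, pooled over genes. Intervals allowed by a count of 0 (3 counts) cover counting error only. The test was checked on simulated data.

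The members, the 10 partner lists, the 13 cell type lists and the rules were chosen with earlier results of these data known. Members were described in every library if they were among the 12 highest levels, had an unadjusted p under 0.05, were among the 3 highest or 3 lowest log2 fold changes, or had log2 ratios of at least 0.5 in size within both replicate numbers (groups not overlapping, or of opposite sign). The 2 tested genes with the smallest p were named from each list, except that a gene the rule takes is not reported here. Any further gene was picked with its values in view. Alternatives were DESeq2 1.42.0, limma-voom (limma 3.58.1), DESeq2 size factors, total counts alone, no filter, at least 5 CPM in 2 libraries, a replicate block, leaving out each library, and TPM for levels. Leaving out each library for the partner lists was added after seeing the data. Figures were drawn with matplotlib 3.10.9.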

Additional observations from a re-analysis of the deposited data

How the results depend on the processing

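The count of called members was 0 under every alternative run, and that of called partner genes was 0 except without control replicate 1 (range over left-out libraries 0 to 2). Over all genes DESeq2 called 23, and leaving out single libraries gave 0 to 183 (183 without control replicate 1, 21 without control replicate 2). Each such fit leaves 1 group with a lone library, assumed to vary like the 2 of the other group. The members' median log2 fold change ran from -0.19 without control replicate 1 to 0.23 without control replicate 2; the cause was not tested. Of 23 members, 17 changed sign in at least 1 fit that left out a library and 6 did not. Those 6 ran from 0.018 to 0.89 (Nr1h3), 0.064 to 0.58 (Nr2c2), 0.018 to 0.31 (Nr3c1), 0.26 to 0.95 (Nr5a2), 0.063 to 0.27 (Nr6a1) and -0.35 to -0.023 (Vdr) on the log2 scale.

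The ranges over left-out libraries, as log2 fold changes, were -0.094 to 0.63 for Esr1, -0.65 to 0.38 for Esrra, -0.39 to 0.32 for Nr1h2, -0.42 to 0.023 for Nr2c1, -0.48 to 0.82 for Nr2f1, -0.054 to 0.35 for Nr2f2, -0.73 to 0.38 for Nr2f6 and -0.67 to 0.36 for Nr3c2. They were -0.075 to 0.32 for Ppard, -0.32 to 0.24 for Rara, -0.80 to 0.28 for Rarb, -0.74 to 0.13 for Rarg, -0.40 to 0.088 for Rora, -0.19 to 0.15 for Rxra, -0.64 to 0.16 for Rxrb, -0.90 to 0.33 for Thra and -0.027 to 0.46 for Thrb. Among partner genes they were -0.57 to 0.12 for Angptl4, -0.58 to 0.12 for Me1, -0.35 to 0.59 for Spp1 and -1.56 to 0.034 for Tnfsf11. Partner genes that kept their sign but moved by over 1.5 times were Abcg1 (0.21 to 0.80), Cpt2 (-0.35 to -0.098), Cyp26b1 (0.41 to 1.71), Dio2 (0.44 to 1.52), Dusp1 (0.18 to 0.60), Hspa8 (-0.57 to -0.05), Lcor (0.40 to 1.03), Mt1 (-0.57 to -0.059), Ncoa6 (0.18 to 0.43) and Atp2a2 (0.00039 to 0.18). The other alternatives turned only Nr1h2, to -0.0028 without a filter, -0.027 with limma-voom and -0.025 with a replicate block.

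With the replicate number as a block edgeR called 0 members and 0 genes in all, and the members' median was -0.03. Deviations of same-numbered libraries from their group means correlated at 0.24 over the tested genes, and Xist and Ddx3y went with the numbers too. No label ties the numbers to litters or days, and with 2 libraries a group these values do not show that the numbers pair the libraries. Levels of at least 1 were reached by 21 members as TPM and by 16 as RPKM, with the same 12 genes leading. The 17 members that did not pass the filter had 0 to 17 reads per library and were not tested.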
